A study of Mus musculus with 2 samples.

Results

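Immunity-related GTPases (IRGs) are large GTP-binding proteins that mouse cells make in response to interferons, above all interferon gamma. They act in cell-autonomous defence: effector IRGs coat the vacuole in which a parasite or bacterium lives and help to break it, while regulator IRGs sit on the cell's own membranes and hold the effectors in the inactive, GDP-bound state. Their transcripts are therefore often read as a record of interferon exposure. The 7 genes described here were the matrix rows named Igtp, Irgm1, Irgm2, Iigp1, Ifi47, Tgtp1 and Tgtp2, out of 32285 genes in all, and all 7 were found in both libraries. Igtp, Irgm1 and Irgm2 encode the regulators. Iigp1, Ifi47, Tgtp1 and Tgtp2 encode effector-type proteins. The genes had been selected on earlier results of the same comparison of NP against saline, so their NP to saline ratios are a description and were not tested.

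In GENCODE vM21 on GRCm38 all 7 genes are annotated as protein coding. Irgm1 lies on chromosome 11 at 48861968 to 48871683 on the minus strand, Tgtp1 at 48985327 to 48994172 (minus), Tgtp2 at 49057194 to 49064206 (minus) and Ifi47 at 49076587 to 49096974 (plus). Igtp at 58199556 to 58207591 and Irgm2 at 58199618 to 58222782 overlap further along the same chromosome, both on the plus strand, and share 162 exonic bases. Iigp1 is on chromosome 18. Tgtp1 and Tgtp2 are near-identical copies. In the final 500 bases of the annotated transcripts, 73.78% of the 91-base windows of Tgtp1 and 65.8% of those of Tgtp2 also occurred in another gene (each other or Gm12185), against 1.69% for Ifi47, shared with Olfr56, and 0 for Igtp, Irgm1, Irgm2 and Iigp1. The split of counts between Tgtp1 and Tgtp2 is therefore uncertain, and their low counts cover only the reads that could be placed.

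The cells came from lungs of female BALB/cJ mice, 12 weeks old, that had been given 100000 cells of the mammary tumour line 4T1 and were studied on day 14. One group received intravenous saline and the other intravenous nanoparticles of the polymer PLG with no drug inside (NPs), every 3 days from day 1. Each group was a single library made from pooled lungs, 4 mice per the labels and 5 per the study's methods. All mice carried a tumour, so there was no tumour-free group, and mouse-to-mouse spread cannot be seen within a pool. The libraries held 91168129 (saline) and 90081747 (NP) unique molecular identifiers (UMIs), each of which counts a captured transcript once. After filtering, 8662 saline and 8333 NP cells remained, with medians of 6474.5 and 6008 UMIs, and 21 cell barcodes occurred in both libraries. Clusters were named by marker genes, and 10 classes with at least 50 cells in each library were compared. With 1 library per group there is no test: levels are the UMIs of a gene scaled to a fixed total of UMIs in the class (CPM) with exact Poisson 95% intervals, ratios are log2 of NP over saline CPM with exact conditional binomial 95% intervals, and both cover counting error only. A lower level in a class cannot be told apart from fewer expressing cells in it.

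The sequence just before the start of 6 of the 7 genes was at hand (RefSeq, GRCm38.p6). These stretches are shown because interferon signals act through short elements there. The capitals mark matches to the core of the gamma-activated site, TTCNNNGAA, and of the interferon-stimulated response element, GAAANNGAA, both searched on both strands in the 250 bases before the start.
Igtp: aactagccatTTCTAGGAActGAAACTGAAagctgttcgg
Irgm2: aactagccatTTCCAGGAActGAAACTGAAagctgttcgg
Tgtp1: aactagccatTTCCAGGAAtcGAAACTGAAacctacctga
Tgtp2: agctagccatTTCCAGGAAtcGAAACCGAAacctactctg
Irgm1: gtttcaaGAAATAGAAACCGAAactgatt
The Igtp stretch is chr11:58199501-58199540 (plus) and that of Irgm2 is chr11:58214892-58214931 (plus), shown 5′ to 3′. The Tgtp1 stretch is chr11:48992305-48992344, that of Tgtp2 is chr11:49064264-49064303 and that of Irgm1 is chr11:48871429-48871457, all on the minus strand. Igtp, Irgm2, Tgtp1 and Tgtp2 held both motifs side by side, at 45 to 37 and 34 to 26 bases before the start in Igtp. Irgm1 held 2 overlapping copies of the response element core and no match to the other motif, within an exon that GENCODE places upstream of the RefSeq start. The stretches of Irgm2 and Tgtp1 also lie inside the GENCODE spans of these genes, outside annotated exons. Ifi47 had no match to either core in this window. Of 32851 promoters of the same length, 7.02% held the first core, 7.13% held the second and 0.752% held both. A match is a string of letters, not evidence that a factor bound there.

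In the saline library the members were unevenly spread over the classes. Igtp was highest in T cells at 81.8 CPM (72.7 to 91.8), clear of endothelial cells at 33.3 CPM, and its levels from endothelial cells down to monocytes at 15.2 CPM followed each other with overlapping intervals. Ifi47 was also highest in T cells, at 150.4 CPM (137.9 to 163.7), followed by endothelial cells at 79.5 CPM and NK cells at 76.9 CPM, which overlapped. Neutrophils stood near the bottom for Ifi47 with 6.57 CPM (5.87 to 7.34). Irgm1 was spread most evenly, from 37.1 CPM in endothelial cells to 10.2 CPM in epithelial cells, and every pair of neighbours in that order overlapped. Among these 10 classes Iigp1 was highest in stromal cells: endothelial cells held 65.5 CPM (56.1 to 76.0) and fibroblasts 59.6 CPM (40.5 to 84.5), which overlapped, then T cells 15.2 CPM. Monocytes held no Iigp1 UMI among 12267701, and neutrophils held 8 among 47919358. The classes are therefore far apart at baseline, as the plot of CPM by class shows.

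**Figure D1:**
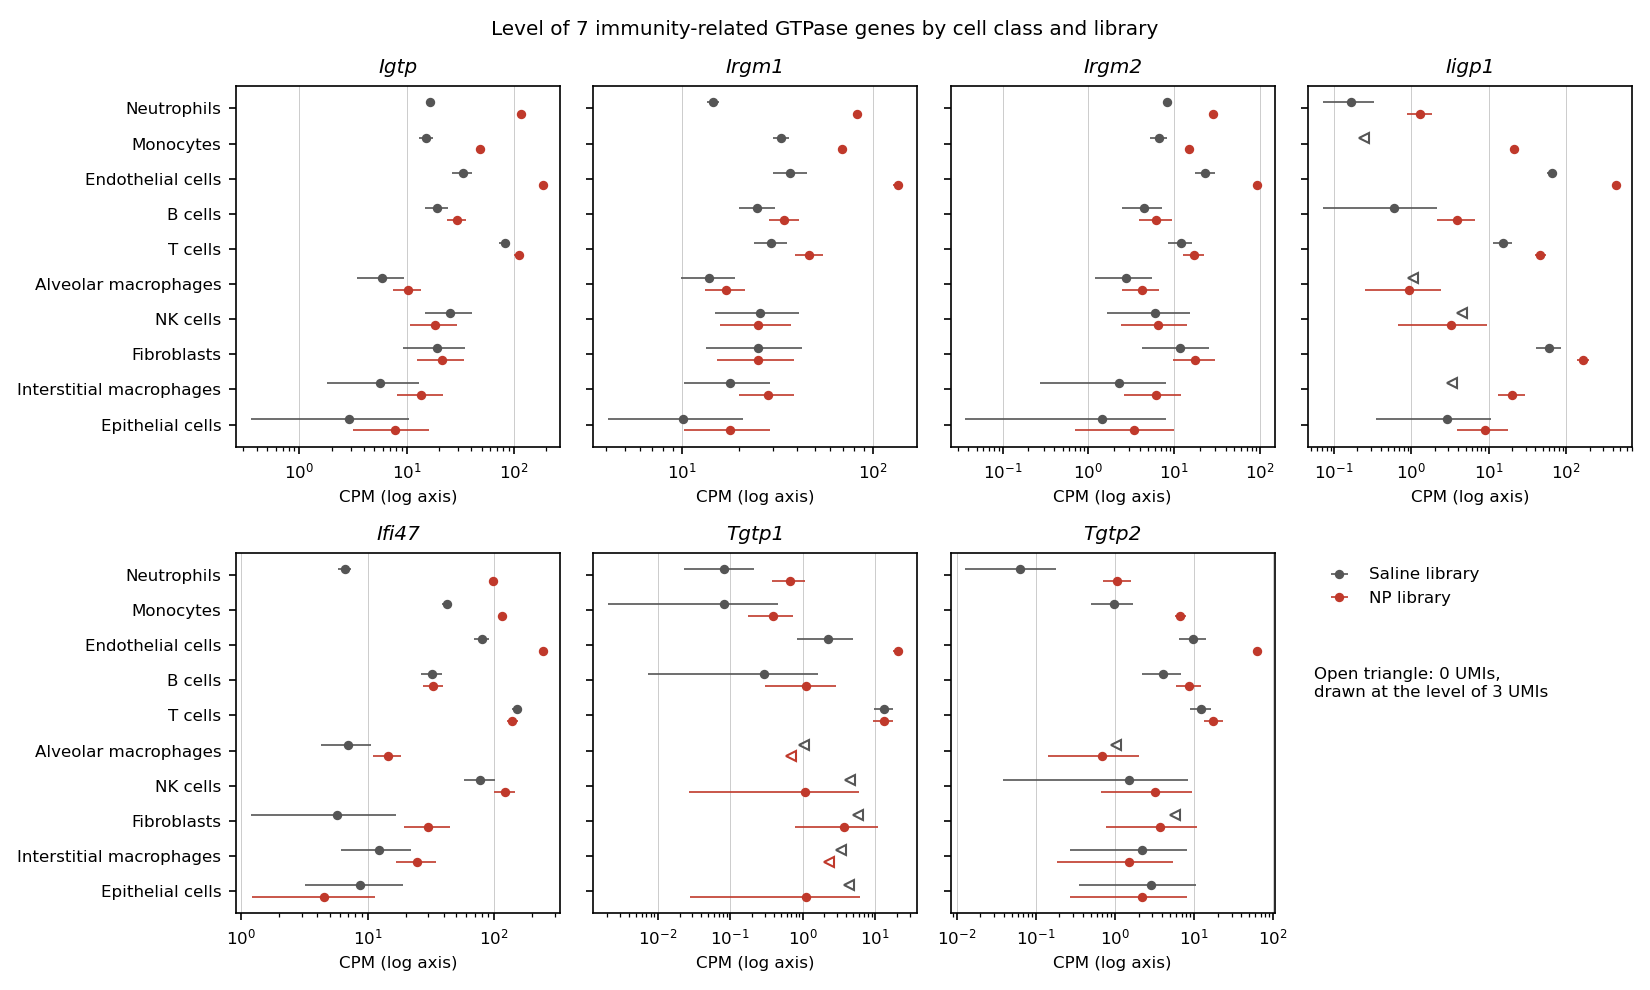
Level of each member in 10 cell classes, in CPM on a log axis, with saline in grey, NP in red and Poisson 95% intervals as bars; the horizontal axes differ between genes. In endothelial cells all 7 NP points lie to the right of the saline points, while in T cells the points of Ifi47 (150.4 and 139.2 CPM) lie close together.

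In the NP library the top of that order was different for Igtp, Ifi47, Tgtp1 and Tgtp2, which had been highest in T cells in saline. For Tgtp2 the saline intervals of T cells and endothelial cells overlapped. Irgm1, Irgm2 and Iigp1 were highest in endothelial cells in both libraries. Endothelial cells held the highest level of every member, at 187.4 CPM for Igtp, 135.6 CPM for Irgm1, 92.5 CPM for Irgm2, 440.9 CPM for Iigp1, 243.2 CPM for Ifi47, 20.6 CPM for Tgtp1 and 62.8 CPM for Tgtp2. For Tgtp1 the interval (17.6 to 24.1) overlapped that of T cells at 13.1 CPM (9.34 to 17.8). Neutrophils held the second highest Igtp (115.7 CPM, overlapping T cells at 110.8 CPM) and the second highest Irgm1 (83.0 CPM, apart from monocytes at 69.0 CPM). Ifi47 in NP neutrophils was 98.2 CPM (94.3 to 102.2), below T cells at 139.2 CPM and monocytes at 115.0 CPM and overlapping NK cells at 121.4 CPM (99.98 to 146.1). Iigp1 in NP neutrophils was 1.29 CPM (0.875 to 1.83), ninth of 10 classes.

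A gene was counted in a class when it had at least 20 UMIs over both libraries. In neutrophils 7 of 7 counted members were at least 2-fold higher in the NP library, where 4.47% of all 11109 counted genes were. In monocytes it was 6 of 6 (3.97% of all genes) and in endothelial cells 7 of 7 (3.93%). No member was 2-fold lower in neutrophils, where 3.1% of all genes were, or in monocytes, where 1.59% were. The median log2 ratio of the members was 2.95 in neutrophils, 1.56 in monocytes and 2.49 in endothelial cells, against −0.12, −0.03 and 0.09 for all counted genes. In the other classes the counts were much lower: 1 of 5 in B cells (1.44% of all genes), 1 of 7 in T cells (2.49%), 1 of 4 in alveolar macrophages (1.46%), 0 of 3 in NK cells (2.7%), 2 of 5 in fibroblasts (4.21%), 2 of 4 in C1q-led interstitial macrophages (3.96%) and 0 of 1 in epithelial cells (15.7%). Since the genes were chosen by this same comparison, nothing about the family is read from these counts.

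**Figure D2:**
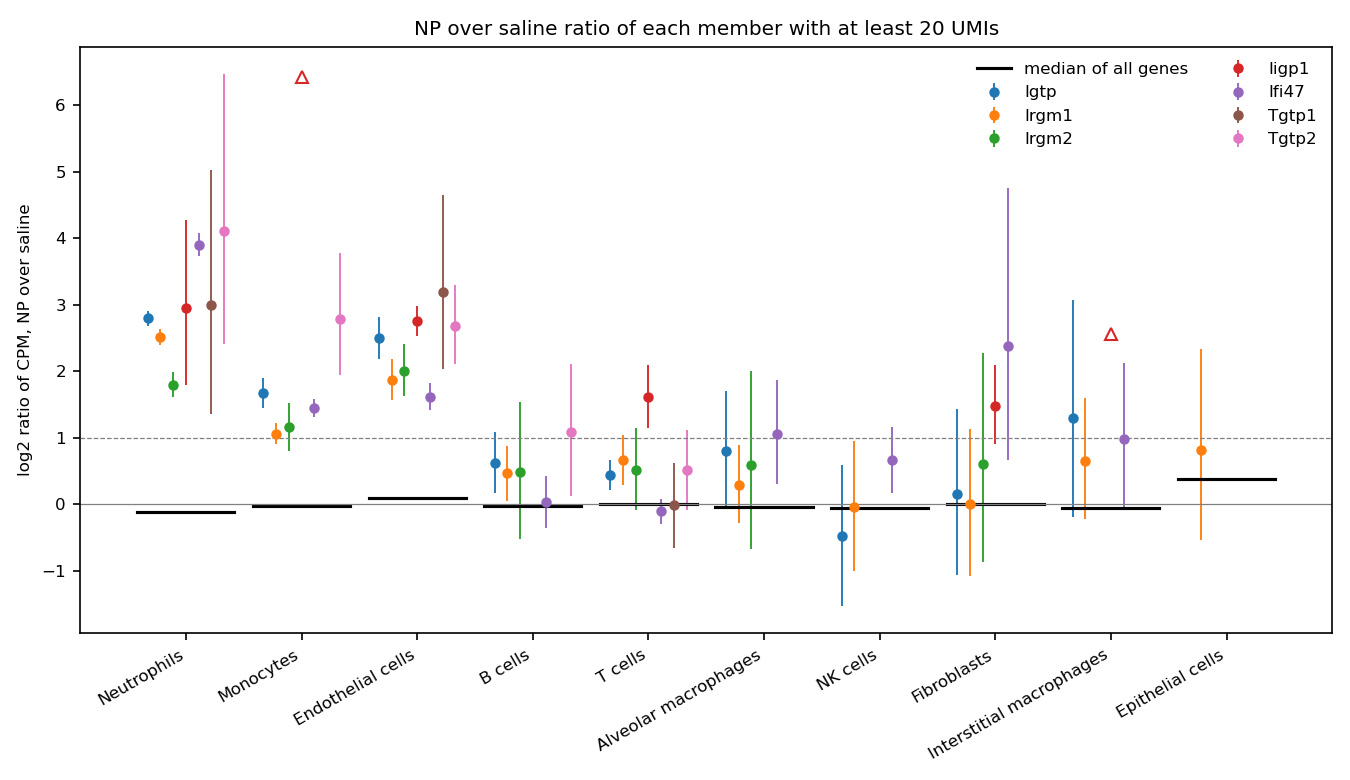
Log2 ratio of CPM, NP over saline, for each member with at least 20 UMIs in a class; bars are 95% counting intervals, open triangles are lower bounds where the saline count was 0, black lines are the median of all genes and the dashed line marks 2-fold. The members of neutrophils, monocytes and endothelial cells lie above the 2-fold line, and those of B, T and NK cells lie between −1 and 1 apart from Tgtp2 in B cells (1.08) and Iigp1 in T cells (1.61).

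In neutrophils Ifi47 had the widest gap of the well-counted members. It had 315 UMIs in 5578 saline cells (6.57 CPM) and 2364 UMIs in 3078 NP cells (98.2 CPM), a log2 ratio of 3.90 (3.73 to 4.08). Igtp had 798 and 2786 UMIs, or 16.7 and 115.7 CPM, a log2 ratio of 2.80 (2.68 to 2.91). Irgm1 had 697 and 1997 UMIs, or 14.6 and 83.0 CPM, a log2 ratio of 2.51 (2.39 to 2.64). Among these 3 genes the counting intervals of Ifi47 lay well apart from those of both regulators. Those of the 2 regulators nearly touched, at 2.68 and 2.64. The intervals treat UMIs as independent, while UMIs were clumped in cells, so the order of these 2 regulators is not resolved. Irgm2, the third regulator, had 394 and 688 UMIs and the lowest log2 ratio, 1.80 (1.62 to 1.98). The remaining effectors were scarce: Iigp1 had 8 and 31 UMIs (2.95, 1.79 to 4.28), Tgtp1 had 4 and 16 (2.99, 1.36 to 5.03), and Tgtp2 had 3 and 26 (4.11, 2.40 to 6.48). Their ratios rest on few molecules, so the order among them is not resolved.

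The neutrophils formed 10 clusters, which were made without the 7 genes but with no other interferon-response gene left out. The summed level of the members ran over a wide range among them in both libraries. The cluster led by Rsad2, Ifit1 and Gbp2b, interferon-response genes, held a summed level of 1058 CPM over its 21 saline cells and 2050 CPM over its 328 NP cells. There Igtp was 396.7 and 625.9 CPM, and Ifi47 was 385.6 and 803.1 CPM. The cluster led by Ccrl2 and Il1b held 201.9 CPM in saline and 615.5 CPM in NP, and the cluster led by Gm13822 and Rtp4 held 181.3 and 471.1 CPM. Near the other end, the cluster of immature granule genes (Ltf, Ngp and Camp) held 15.6 and 27.4 CPM, with Igtp at 4.88 and 9.79 CPM and Ifi47 at 3.28 and 6.53 CPM. The proliferating cluster, led by Camp and Ube2c, lay lower still in both libraries.

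**Figure D3:**
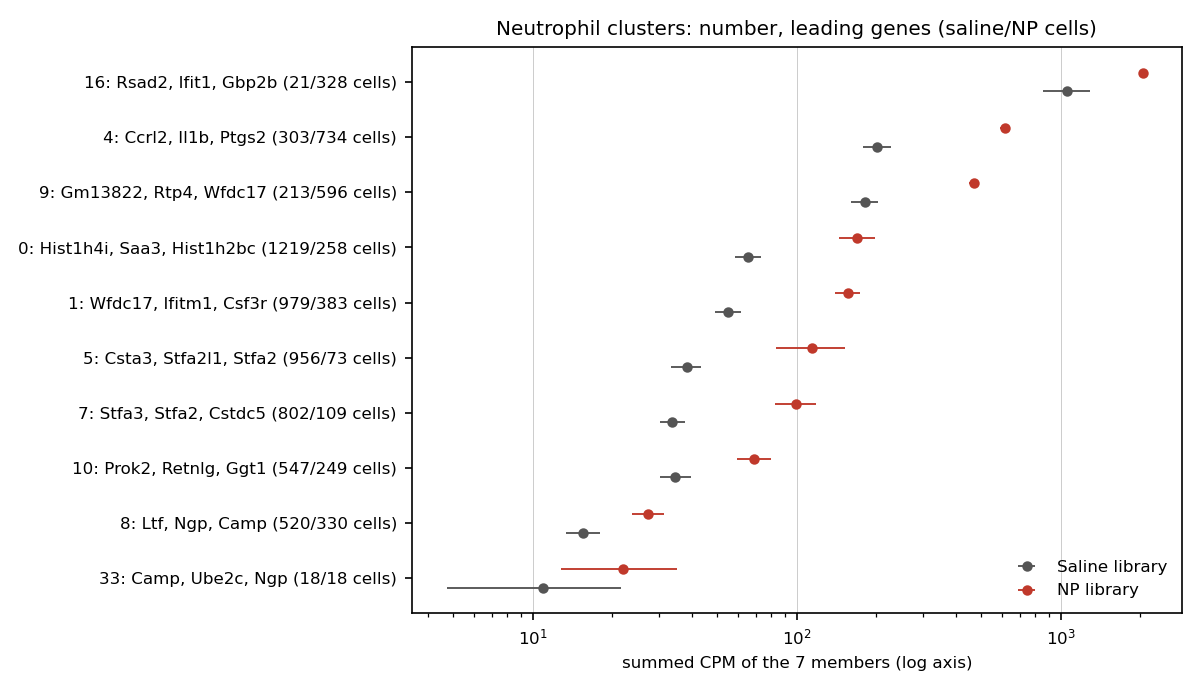
Summed CPM of the 7 members in each neutrophil cluster, on a log axis, with Poisson 95% intervals; labels give the cluster number, its leading genes and its saline and NP cells. In every cluster the NP point (red) lies to the right of the saline point (grey), from 10.9 and 22.0 CPM in the smallest to 1058 and 2050 CPM in the Rsad2-led cluster.

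Within each of the 10 neutrophil clusters the summed level was higher in NP, by a log2 ratio of 0.82 to 1.61. The interval reached below 0 only in the proliferating cluster of 18 saline and 18 NP cells (−0.28 to 2.43). Over all neutrophils together the summed level was 46.3 CPM in saline and 328.5 CPM in NP, a wider gap than in any single cluster. When the NP clusters were weighted as in the saline library, the log2 ratio was 1.53 for Igtp, 1.27 for Irgm1, 0.82 for Irgm2 and 1.72 for Ifi47, in place of 2.80, 2.51, 1.80 and 3.90. That weighting was chosen after the data were seen and gives the NP cells of the Rsad2-led cluster the small weight of its 21 saline cells. Since the clusters could form on other interferon-response genes, it cannot tell a changed cluster mix from a changed interferon response. Without the Rsad2-led cluster Ifi47 had a log2 ratio of 3.19 and Igtp 2.39. In the Ccrl2-led cluster Ifi47 had 32 and 450 UMIs, a log2 ratio of 2.56 (2.05 to 3.13). That was its highest ratio among the neutrophil clusters with Ifi47 UMIs in both libraries. The lowest was 0.93 (0.02 to 1.77), in the cluster led by Hist1h4i and Saa3, where Igtp had 1.61 (1.11 to 2.10). In the Rsad2-led cluster Ifi47 had 1.06 (0.57 to 1.59). Its lead over Igtp was therefore not seen in every cluster.

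In monocytes the clearest separation was that of Iigp1, an effector that binds the vacuole membrane. No UMI was seen in 815 saline monocytes, a limit of 0.245 CPM when 3 UMIs are allowed, and 486 UMIs were seen in 1548 NP monocytes, 21.1 CPM (19.3 to 23.1). Against a saline count of 3 UMIs the NP level was at least 86.3-fold higher, or 69.9-fold at the lower end of the counting interval. The 486 UMIs lay in 159 cells, 10.3% of the NP monocytes, and the fullest cell held 22. They were found in each of the 4 monocyte clusters, at 20.9 CPM in the main F13a1 and Ccr2 cluster, 16.9 CPM in the Aif1 and Fcgr1 cluster, 31.6 CPM in the cluster led by Eno3 and Cd300e, and 8.19 CPM in the proliferating one. Barcodes with under 50 UMIs, taken here as a sample of free RNA, carried 4.597 CPM of Iigp1 in saline and 40.5 CPM in NP. S100a8, a neutrophil gene, allowed free RNA to make up at most 3.57% of NP monocyte UMIs, which at the level of those barcodes is at most 6.84% of the Iigp1 level there.

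The other monocyte members were already present in saline. Ifi47 had 517 and 2647 UMIs, or 42.1 and 115.0 CPM, a log2 ratio of 1.45 (1.31 to 1.59). Igtp had 186 and 1106 UMIs (15.2 and 48.0 CPM), a log2 ratio of 1.66 (1.44 to 1.90). Irgm1 was near the 2-fold line at 33.2 and 69.0 CPM, a log2 ratio of 1.06 (0.90 to 1.22), and Irgm2 at 6.603 and 14.7 CPM had 1.15 (0.80 to 1.52). Tgtp2 had 12 and 156 UMIs, a log2 ratio of 2.79 (1.95 to 3.78), and Tgtp1, with 1 and 9 UMIs, was below the count limit. For Ifi47 the ratio in neutrophils exceeded that in monocytes by 2.45 (2.24 to 2.67) on the log2 scale, for Irgm1 by 1.46 (1.25 to 1.66) and for Igtp by 1.13 (0.88 to 1.38). Within the monocyte clusters the summed level had log2 ratios of 1.47 to 2.18, and weighting the NP clusters as in saline left Igtp at 1.66, Irgm1 at 1.13 and Ifi47 at 1.53. With the same weighting the neutrophil values were 1.53, 1.27 and 1.72, so the excess in neutrophils was mostly lost, and for Igtp the order turned. Whether the excess came from the cluster mix was not tested, since the clusters could form on other interferon-response genes.

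Endothelial cells, 546 in saline and 1709 in NP, started from a higher level than neutrophils, with the 7 members at 250.4 CPM together in saline and 1183 CPM in NP. Iigp1 had 173 and 3463 UMIs, or 65.5 and 440.9 CPM, a log2 ratio of 2.75 (2.53 to 2.98). Igtp had 88 and 1472 UMIs, or 33.3 and 187.4 CPM, a log2 ratio of 2.49 (2.18 to 2.82). For Igtp the neutrophil ratio exceeded the endothelial one by 0.30 (−0.03 to 0.63), an interval that includes 0. For Irgm1 the excess was 0.64 (0.32 to 0.96) and for Ifi47 it was 2.29 (2.02 to 2.55), both above 0. For Irgm2 it was −0.21 (−0.62 to 0.21), and the intervals of Iigp1, Tgtp1 and Tgtp2 also included 0. Irgm2 (61 and 727 UMIs) had a log2 ratio of 2.00 (1.63 to 2.41) and Irgm1 (98 and 1065 UMIs) had 1.87 (1.57 to 2.18). Tgtp2 had 26 and 493 UMIs, a log2 ratio of 2.67 (2.10 to 3.30), and Tgtp1 had 6 and 162, a log2 ratio of 3.18 (2.03 to 4.65). Ifi47, which led the well-counted members in neutrophils, had the smallest endothelial ratio, 1.61 (1.41 to 1.83), at 79.5 and 243.2 CPM.

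The endothelial clusters differed in their level of Iigp1. The cluster led by Sema3g and Gpihbp1 held 123.9 and 629.8 CPM, and the cluster led by Car4 and Ednrb held 8.89 CPM (2 UMIs) and 228.2 CPM. The Vwf-led cluster held 36.7 CPM (4 UMIs in 12 saline cells) and 363.0 CPM. Neutrophil RNA was abundant in these shallow cells: the 15 neutrophil markers summed to 91100 CPM in saline and 39870 CPM in NP endothelial cells, with none at 0, beside 17910 and 19700 CPM for the 16 endothelial markers. S100a8 allowed up to 38.6% (saline) and 27.7% (NP) of their UMIs to be free RNA. At that limit free RNA gave 2.54% of the Iigp1 level and 11.5% of the Igtp level in NP endothelial cells. In saline endothelial cells it gave 2.71% and 20.2%. The unequal limits of the libraries were not taken out of the ratios. Without the shallowest cluster (median 1846 UMIs, led by Emp2 and Clic5) the log2 ratio was 2.41 for Iigp1, 2.18 for Igtp and 1.18 for Ifi47, and 7 of 7 members were still at least 2-fold higher.

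T cells also started from a high level, with the 7 members at 314.3 CPM together in saline. Their summed NP level was 390.5 CPM, and most members differed little. Ifi47 had 533 and 426 UMIs in 507 saline and 416 NP T cells, or 150.4 and 139.2 CPM, a log2 ratio of −0.11 (−0.30 to 0.08). Igtp was 81.8 and 110.8 CPM, a log2 ratio of 0.44 (0.21 to 0.67) that became −0.34 after thinning to 1000 UMIs, and Irgm1 was 29.3 and 46.4 CPM, a log2 ratio of 0.66 (0.29 to 1.04). Tgtp1 in T cells was its highest level of the 10 classes in saline and nearly equal in the libraries, at 13.3 and 13.1 CPM, a log2 ratio of −0.02 (−0.67 to 0.62). Iigp1 was the exception, with 54 and 142 UMIs, or 15.2 and 46.4 CPM, a log2 ratio of 1.61 (1.14 to 2.09). After thinning to 1000 UMIs, however, Iigp1 was at 0.55, under the 2-fold line, while Irgm1 was at 1.12, above it. In NK cells Ifi47 had 51 and 112 UMIs, a log2 ratio of 0.66 (0.17 to 1.17), and Igtp had 17 in each library. B cells held 32.2 and 33.0 CPM of Ifi47, a log2 ratio of 0.03 (−0.36 to 0.42), and Igtp at 19.1 and 29.3 CPM had 0.62 (0.16 to 1.09).

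Among the smaller classes, fibroblasts held Iigp1 at 59.6 CPM (31 UMIs) in saline and 166.4 CPM (133 UMIs) in NP, a log2 ratio of 1.48 (0.91 to 2.10). In the same cells Irgm1 was 24.98 and 25.03 CPM, a log2 ratio of 0.00 (−1.08 to 1.13). Ifi47 in fibroblasts had 3 and 24 UMIs, a log2 ratio of 2.38 (0.66 to 4.76). Free RNA at the S100a8 limit was up to 23.35% of that Ifi47 level in NP and 5.09% in saline. For Iigp1 in NP fibroblasts it was up to 1.95%. The 16 endothelial markers summed to 595.6 CPM in saline and 1410 CPM in NP fibroblasts. No cluster was named conventional dendritic cells, and the class called interstitial macrophages may hold some. In that class the 12 dendritic cell markers summed to 853 CPM in saline and 1010 CPM in NP, with none at 0. Its own 8 markers summed to 2991 and 4283 CPM. Interstitial macrophages held no Iigp1 UMI in 64 saline cells and 26 in 87 NP cells. That was at least 5.89-fold higher against 3 saline UMIs, or 4.46-fold at the lower end of the counting interval. Those 26 UMIs lay in 4 cells, of which 1 held 13, and free RNA at the S100a8 limit was up to 42.8% of the level. For Igtp in the same NP cells that limit was 118.7% of the level and for Ifi47 it was 74.9%. In alveolar macrophages Ifi47 had 20 and 62 UMIs, a log2 ratio of 1.05 (0.31 to 1.86), which turned to −0.87 when the 5% of cells with the highest doublet scores were left out. Epithelial cells held only 20 and 41 UMIs of all members together.

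Single cells were compared after each was thinned to 1000 UMIs. In saline 320 of 5570 neutrophils, 5.75% (5.15% to 6.39%), held a UMI of any member, and in NP 891 of 3076, 29.0% (27.4% to 30.6%). Endothelial cells went from 19.9% (16.5% to 23.6%) to 51.1% (48.6% to 53.6%) and monocytes from 8.96% (7.09% to 11.1%) to 20.1% (18.1% to 22.2%). T cells were at 27.2% and 27.9%, and B cells at 8.64% and 8.29%, with overlapping intervals. Alveolar macrophages had 4 of 164 and 12 of 222 cells. Epithelial cells, taken as a low reference, had 2 of 53 and 0 of 51 cells, the latter allowing up to 5.88% at 3 counts (exact upper limit 6.98%). Their median depths before thinning were 13040 and 18829 UMIs, against 6043.5 and 5236.5 in neutrophils. Without thinning the neutrophil shares were 24.8% and 61.3%, the monocyte shares 57.7% and 79.7%, the endothelial shares 45.97% and 75.5%, and the epithelial shares 22.6% and 45.1%. Thinning left out 8 saline and 2 NP neutrophils, and 43 and 136 endothelial cells.

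**Figure D4:**
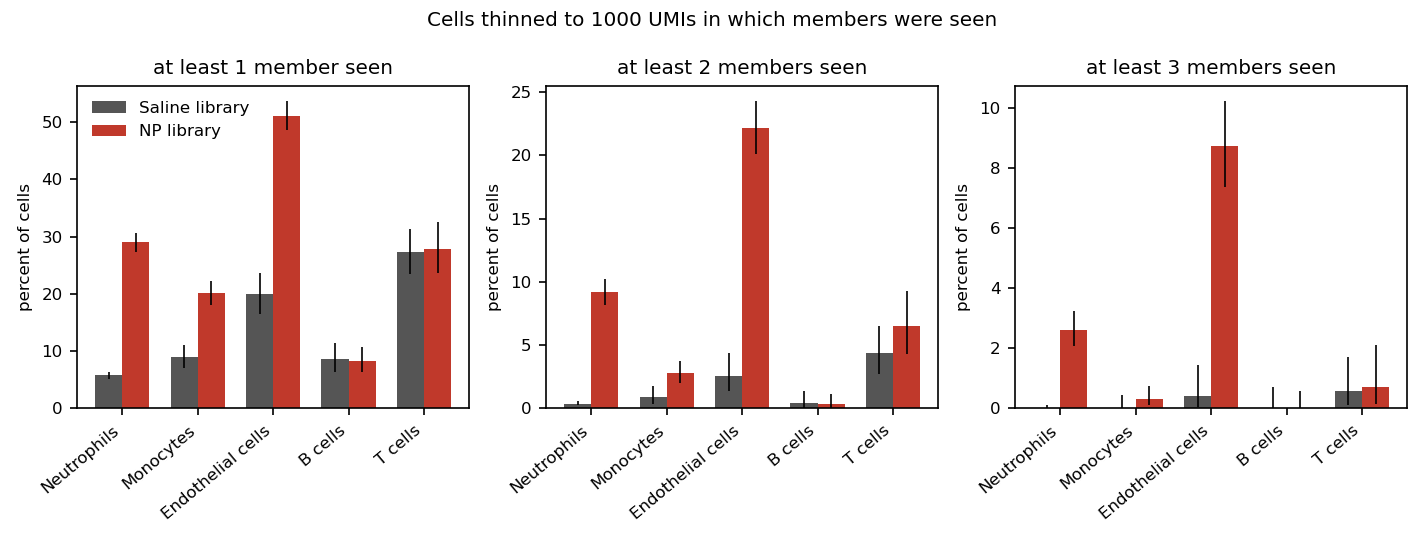
Percent of cells, thinned to 1000 UMIs, in which at least 1, 2 or 3 of the 7 members were seen, in the 5 classes with most cells. Bars carry exact binomial 95% intervals over cells, with no mouse or library spread, and the vertical scale differs between panels. NP bars (red) stand above saline bars (grey) in neutrophils, monocytes and endothelial cells, and T cells have 27.2% and 27.9% with at least 1 member.

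More than 1 member was seen in a minority of cells. At least 2 members were seen in 0.377% of saline and 9.17% of NP neutrophils, 0.859% and 2.78% of monocytes, and 2.58% and 22.1% of endothelial cells. At least 3 members were seen in 1 of 5570 saline neutrophils and 80 of 3076 NP neutrophils (2.60%, 2.07% to 3.23%), and in 2 of 503 saline and 137 of 1573 NP endothelial cells (8.71%, 7.36% to 10.2%). Of the 444 NP neutrophils with an Igtp UMI, 28.2% (24.0% to 32.6%) also held Irgm1, against 8.59% (7.54% to 9.72%) of the 2632 without. For Ifi47 the shares were 27.3% (23.2% to 31.7%) and 7.79% (6.79% to 8.88%). Before thinning, 1268 of the 3078 NP neutrophils held Igtp and 890 held Ifi47. The 308 cells richest in each gene held 49.9% of the Igtp and 68.9% of the Ifi47 UMIs, and the fullest cells had 16 and 20 UMIs.

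The wider interferon pathway was read from lists whose genes were written with earlier results of these data known. Ifngr1, the ligand-binding chain for interferon gamma, was lower in NP: 378.1 and 255.9 CPM in neutrophils (log2 ratio −0.56, −0.60 to −0.52) and 755.3 and 515.1 CPM in monocytes (−0.55, −0.59 to −0.51). In neutrophils Ifngr2 and the type I receptor genes Ifnar1 and Ifnar2 lay between −0.09 and 0.20. None of 4 counted receptor and ligand genes and none of 3 kinase genes (Jak1, Jak2 and Tyk2) was 2-fold higher in neutrophils, monocytes or endothelial cells. Of all counted genes 4.47%, 3.97% and 3.93% were at least 2-fold higher in these classes. A count of 0 among so few genes is near those shares. Ifng itself was found mainly in NK cells, at 223.2 and 277.5 CPM (148 and 256 UMIs, log2 ratio 0.31, 0.02 to 0.62), and in T cells, at 16.1 and 26.1 CPM (57 and 80 UMIs, 0.70, 0.19 to 1.22). No Ifnb1 UMI was seen in neutrophils, monocytes or endothelial cells of either library.

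Of the transcription factors and coactivators, 5 of 7 counted genes were 2-fold higher in neutrophils (4.47% of all genes). It was 2 of 8 in monocytes (3.97%) and 2 of 8 in endothelial cells (3.93%). Irf1, which drives many interferon gamma targets, was 109.0 and 325.8 CPM in neutrophils (log2 ratio 1.58, 1.53 to 1.63) and 81.6 and 176.7 CPM in monocytes (1.11, 1.01 to 1.22). In endothelial cells Irf1 had a log2 ratio of 0.83. In neutrophils Stat2 had a log2 ratio of 1.40, Irf7 had 1.36 and Irf9, under the line, had 0.83. Irf8 had 1.10 (0.44 to 1.77), which rests on 39 and 42 UMIs (0.81 and 1.75 CPM) and an interval that reaches under 2-fold. In monocytes and endothelial cells these 4 genes lay under 2-fold, with Stat2 at 0.52 and 0.70, Irf7 at 0.57 and 0.26, Irf8 at 0.27 and 0.90, and Irf9 at 0.08 and 0.55. Nlrc5, the coactivator of MHC class I genes, had 2.64 in neutrophils, 1.16 in monocytes and 1.61 in endothelial cells. Ciita, the coactivator of MHC class II genes, had 13 and 405 UMIs in endothelial cells, a log2 ratio of 3.39 (2.60 to 4.31), and 0.58 in monocytes. Irf2, a repressor, lay between 0.17 and 0.24 in these 3 classes.

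Of the feedback inhibitors, Socs1 had log2 ratios of 2.68 in neutrophils, 1.88 in monocytes and 1.20 in endothelial cells, and Usp18 had 2.06, 0.61 and 0.68. Socs3 was 0.24, −0.39 and −0.54, and Ptpn2 and Ptpn11 lay between −0.34 and 0.09. The guanylate-binding proteins, a second family of interferon-induced GTPases, were higher in NP as well. In neutrophils 8 of 8 counted genes were 2-fold higher (4.47% of all genes), in monocytes 8 of 10 (3.97%) and in endothelial cells 9 of 10 (3.93%). Gbp5 had 49 and 747 UMIs in neutrophils (log2 ratio 4.92) Gbp2b had 2127 and 6713 (2.65), and Gbp2 had 2.45, Gbp3 3.08, Gbp7 2.05 and Gbp9 2.33. Gbp4 had 3.75 in monocytes and 2.14 in endothelial cells.

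Further genes of the IRG family had mixed ratios. Gm4951 had no UMI in saline monocytes and 93 in NP monocytes, and 33 and 371 UMIs in endothelial cells (log2 ratio 1.92, 1.40 to 2.48). F830016B08Rik had 0 and 34 UMIs in monocytes, and Gm12185 had 10 and 13 UMIs in neutrophils (1.37, 0.07 to 2.72), and 1 and 63 UMIs in endothelial cells (4.41, 1.88 to 9.73). Gm12185 shares sequence with Tgtp1 and Tgtp2. By contrast, 9930111J21Rik2, with the most UMIs of the further genes, had log2 ratios of 0.64 in neutrophils, 0.37 in monocytes and 0.68 in endothelial cells, and Irgq had −0.59, −0.60 and 0.50. In all, 1 of 5 counted further genes was 2-fold higher in neutrophils (4.47% of all genes). It was 2 of 7 in monocytes (3.97%) and 3 of 6 in endothelial cells (3.93%). None of the 10 autophagy conjugation genes, which place some effectors on vacuoles, was 2-fold higher or lower in these 3 classes. A count of 0 among 10 genes is near the shares of all genes. The share of all genes that were 2-fold lower was not taken for endothelial cells. The 8 dissociation stress genes held none past 2-fold in neutrophils or monocytes and 2 in endothelial cells, Hspa1a (1.01) and Hspa1b (1.09).

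**Figure D5:**
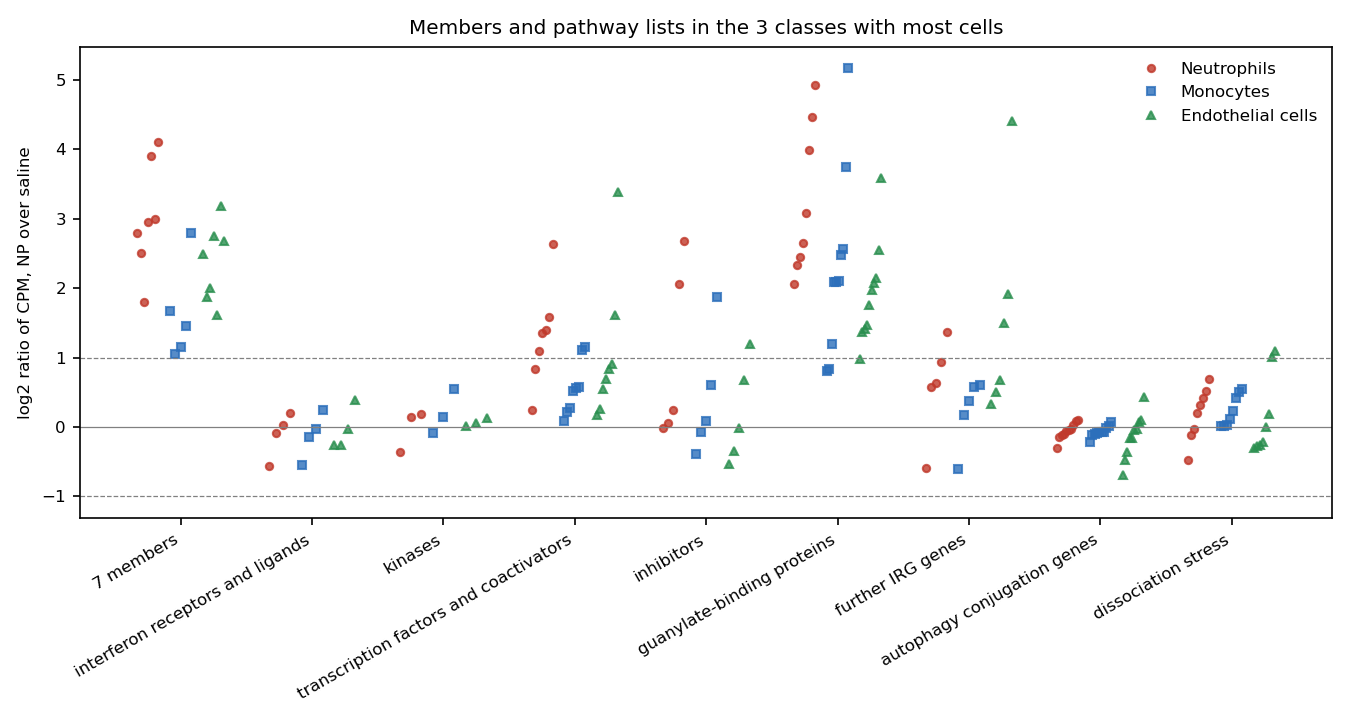
Log2 ratio of CPM, NP over saline, for the members and for each listed gene with at least 20 UMIs and a count above 0 in both libraries; red circles are neutrophils, blue squares monocytes and green triangles endothelial cells, and dashed lines mark 2-fold. The guanylate-binding proteins lie mostly above 2-fold, as the members do, while receptors, kinases and autophagy genes lie between −1 and 1.

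Over the 20 points given by 10 classes in 2 libraries, the genes whose log CPM ran most like the mean of the members were Gbp6 (Pearson r 0.90), Gbp9 (0.86), Olfr56 (0.84), Gbp5 (0.83), H2-Q4 (0.82), Gbp4 (0.82), Ccdc184 (0.80), Gm9889 (0.80), Herc6 (0.78) and Parp14 (0.78), out of 11821 genes. The points share libraries and are not independent. Olfr56 shares 111 exonic bases with Ifi47. Among the members themselves r ran from 0.40 (Iigp1 with Ifi47) to 0.89 (Tgtp1 with Tgtp2), and the 3 regulators had pairwise r of 0.86 to 0.88.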

How the data were processed

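Lung cells of 1 saline and 1 NP library were analysed. The authors deposited raw UMI counts per gene and barcode, made with Cell Ranger (version 6.0 on mm10 per the labels, while the file headers name version 4); intronic counting is not given in the sources used here. The 7 genes, the gene lists and the marker lists were chosen with earlier results of these data known. A barcode counted as a cell when it had 500 to 5000 genes with a UMI and less than 7.5% of its UMIs from mitochondrial genes. Cells were scaled to 10000 UMIs and clustered together without integration on 2000 variable genes, without the 7 members (30 components, 20 neighbours, Leiden at resolution 1; scanpy 1.11.5, leidenalg 0.10.2, numpy 2.4.6, scipy 1.17.1). Clusters were named from at least 3 detected markers. Clusters led by mesothelial or granule progenitor genes were left unnamed after they were seen. The text names the 7 members, list genes at least 2-fold apart in neutrophils or monocytes (at most 6 per list, by UMIs), the receptors and transcription factors, and the 10 genes most like the members over log2(CPM + 10). Cell names were rebuilt here and may differ from the study's. A count of 0 was set to 3 for ratios. Doublets were kept: the threshold that Scrublet set marked 1 saline cell (0.012%) and 307 NP cells (3.684%), so it was not used, and the 5% of highest scores per library were left out as an alternative. Ratios and intervals were tested on simulated independent Poisson counts, the model that the intervals assume. That test did not cover the clumping of UMIs in cells. Thinning was tested on NP neutrophils of these data. Alternatives were other cell filters, resolutions, variable genes, weights, centring, thinning, count limits and free RNA subtraction. Motif cores were searched with Python 3.11.15.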

Additional observations from a re-analysis of the deposited data

Results flagged for a closer look

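Iigp1 in plasmacytoid dendritic cells, a class too small to be compared above (18 saline and 33 NP cells), was lower in NP while 8 other classes had it higher. It had 56 saline UMIs (279.0 CPM) and 16 NP UMIs (40.01 CPM), a log2 ratio of −2.80 (−3.70 to −1.98). The 56 saline UMIs lay in only 2 of the 18 cells (11.1%), and the 16 NP UMIs lay in 6 of 33 (18.2%). The share of cells with Iigp1 thus ran the other way, and its lower level rests on those 2 cells. Igtp, below the count limit, had 14 and 4 UMIs in this class, a log2 ratio of −2.80 (−4.86 to −1.13). Those UMIs lay in 5 of 18 saline and 4 of 33 NP cells. Irgm1 had 16 and 21 UMIs (−0.60, −1.61 to 0.43). All members together, Iigp1 included, had 121 and 82 UMIs (−1.56, −1.98 to −1.14). The difference between this class and the others was not tested, since each class had 1 library per group.

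Barcodes with under 50 UMIs, which belong to no compared class, held every member at a higher level in NP. Their log2 ratios of NP over saline were 2.15 for Igtp (76 and 344 UMIs), 1.95 for Irgm1, 2.31 for Irgm2, 3.14 for Iigp1 (20 and 179 UMIs), 2.42 for Ifi47, 2.98 for Tgtp1 (2 and 16 UMIs) and 1.60 for Tgtp2. The total UMIs in these barcodes were 4350835 in saline and 4421248 in NP. Their S100a8 level was 97120 CPM in saline and 60580 CPM in NP, and their Sftpc level was 1457 and 5411 CPM. Limits for monocytes, endothelial cells, fibroblasts and interstitial macrophages are given above. For neutrophils the limit was set by Sftpc, an epithelial marker. It allowed free RNA to be up to 35.0% (saline) and 32.8% (NP) of the Iigp1 level there. For Tgtp2 these limits were 51.4% and 7.43%, and for Ifi47 they were 3.16% and 0.93%. The S100a8 limit also allowed free RNA to be up to 40.2% of the Igtp level in NP B cells and 57.9% in NP NK cells.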

How the results depend on the processing

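No paired analysis was possible because each group was a single library with no replicate to pair or leave out. Of 16 alternatives to the handling of cells, clusters and counts, 4 were chosen after the data were seen: leaving out the Rsad2-led neutrophil cluster, the shallow endothelial cluster or the highest 5% of doublet scores, and weighting NP clusters as in saline. Leaving out the doublets marked by the caller's own threshold was planned and not run, since it marked 1 saline cell. In endothelial cells 6 or 7 members were at least 2-fold higher under each alternative run. In neutrophils the count of 7 became 4 after thinning to 1000 UMIs, with the top 1% of cells left out, or with a limit of 200 UMIs, and 5 with NP clusters weighted as in saline (Irgm2 at 0.82 and Tgtp1 at −0.28 fell under the line) or without the Rsad2-led cluster, and in monocytes the 6 became 3 after thinning. Thinning and the higher limit leave fewer members to count. In monocytes, however, Irgm1 (0.83) and Irgm2 (0.355) were still counted after thinning and fell under the line. In the other classes the small counts moved. B cells had 2 with at least 800 genes, with mitochondrial UMIs under 5% or at resolution 2, and 0 after thinning or at 200 UMIs. T cells had 0 at 200 UMIs, and after thinning Iigp1 (0.55) fell under the line while Irgm1 (1.12) rose above it. Alveolar macrophages had 4 with no upper limit on genes, and 0 with mitochondrial UMIs under 5%, without the highest doublet scores, with equal cell weights, after thinning, without the top 1% of cells, after free RNA subtraction or at 200 UMIs. Fibroblasts had 1 with at least 800 genes, without the highest doublet scores or after thinning, and 0 at 200 UMIs. Interstitial macrophages had 4 without the highest doublet scores, and 0 after thinning or at 200 UMIs. Epithelial cells had 6 with no upper limit on genes and 1 with equal cell weights. In the main setting 15.7% of all counted genes were already 2-fold higher in epithelial cells. The share of all genes was not taken under the alternatives, so none of these counts is read as a result about the members. Ratios of at least 2-fold that changed sign were Tgtp1 in neutrophils with NP clusters weighted as in saline and Ifi47 in alveolar macrophages without the highest doublet scores (−0.87), and the cause was not tested. Ratios under 2-fold that changed sign in at least 1 alternative were those of Irgm1, Irgm2 and Ifi47 in B cells, Igtp and Tgtp1 in T cells, Igtp and Irgm1 in alveolar macrophages, Irgm1 in NK cells, and Igtp and Irgm1 in fibroblasts, such as Igtp in alveolar macrophages without the highest doublet scores (−0.50) and Irgm1 in B cells after thinning (−0.27). The percent of cells with any member in saline and NP was 9.48% and 41.3% in neutrophils, 15.7% and 34.4% in monocytes and 32.3% and 69.3% in endothelial cells at 2000 UMIs, and 24.8% and 61.3%, 57.7% and 79.7%, and 45.97% and 75.5% without thinning.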

Other observations

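Mural cells, with 31 saline and 116 NP cells, were not compared for want of saline cells. The class joined a cluster with Tagln and Acta2 (20 and 59 cells, 1 and 29 Iigp1 UMIs) and one led by Cox4i2 and Postn (11 and 57 cells, 1 and 123 Iigp1 UMIs). A free RNA limit and the sum of endothelial markers were not taken for this class. Iigp1 had 2 saline UMIs and 152 NP UMIs there (13.6 and 220.1 CPM), a log2 ratio of 4.01 (2.14 to 7.07). Ifi47 had 1 and 68 UMIs, and Irgm2, a regulator, had 1 and 33. Igtp had no UMI in saline mural cells and 55 in NP. That was at least 3.90-fold higher against 3 saline UMIs, or 3.065-fold at the lower end of the counting interval.

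A cluster led by haemoglobin genes, which also held the platelet genes Pf4 and Ppbp, had 35 saline and 42 NP cells. It carried 7 and 55 UMIs of Igtp (22.9 and 155.6 CPM) and 2 and 33 UMIs of Irgm1. Iigp1 had none in saline and 24 in NP. Basophils, 21 and 39 cells, held 8 Ifi47 UMIs in NP and none in saline.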
